A study of Mus musculus with 30 samples.

Results

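Glioblastoma-like cortical tumours that carried the R108G form of the epidermal growth factor receptor (EGFR) were compared with tumours that carried wild-type EGFR. All 3 libraries labelled R108G and all 3 labelled wild-type EGFR were used, 6 of the 30 libraries of the series. Each library was polyadenylated RNA of bulk cortical brain tumour from a mouse at postnatal day 70, made with a stranded mRNA kit, and the value per gene is a read count scaled by library and given in RPM, reads per 1e+06 reads. The other libraries served as reference: 3 mCherry tumours (the label names a fluorescent protein and no receptor), 19 tumours of 5 other EGFR variants (A289I, A289V, R108K, R222C and T263P) and 2 samples of normal cortex. The genotype and sex of the mice, the way the tumours were started, the promoter of the receptor and the species it came from are not given in the sources used here. The design text states 3 to 5 mice per variant. It does not tie a library to a mouse, so the p-values measure the spread between libraries. The tumours are numbered in the order of deposition and the numbers pair nothing.

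EGFR is a receptor tyrosine kinase. Binding of an EGF family ligand to its extracellular part lets receptors pair and activate their kinases, and the signal passes through adaptors to RAS and ERK, which drive division, and through PI3K and AKT, which favour growth and survival. In glioblastoma the gene is often amplified or altered, and missense changes cluster in the extracellular part. The arginine lies in the first extracellular domain. R108G puts a glycine in its place, and R108K a lysine.

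The altered residue is shown here in the mouse gene because reads were counted against mouse genes. The sequence below is the sense strand around the codon of this arginine in mouse Egfr, on the plus strand of chromosome 11, in exon 3 of the main transcript (GENCODE, mm10, chr11:16860122-16860178), which encodes a protein of 1210 residues. The capitals mark that codon, at positions 16860149 to 16860151, which reads arginine as it does in the variant's name.
Mouse Egfr: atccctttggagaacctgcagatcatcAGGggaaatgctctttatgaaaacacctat
Gene counts cannot tell the R108G transcript from the wild-type one, so Egfr values below are the sum of the mouse gene's own transcripts and of any introduced receptor whose reads align to it.

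Egfr mRNA differed more among the R108G tumours than between the groups. It was at 17.5, 732 and 52.3 RPM in R108G tumours 1, 2 and 3. The wild-type EGFR tumours had 115, 209 and 393 RPM, and the mCherry tumours 22.1 to 35.4 RPM. R108G tumour 2 was therefore above every wild-type tumour, while tumours 1 and 3 were below every wild-type tumour. Tumour 1 was also below the mCherry tumours (exact 95% Poisson interval 15.7 to 19.4 RPM for tumour 1, against 19.96 to 24.3 for the lowest mCherry tumour). These intervals cover counting error only. The groups overlapped, and the mean difference was -1.24 ± 1.09 (SE) on the log2(RPM + 1) scale, with an adjusted p of 0.754 (limma, n = 3 against 3). The R108K tumours, with the other change at this residue, had 137 to 634 RPM, and the 19 tumours of the other 5 variants ran from 52.1 through a median of 308.3 to 2790 RPM. A lower share of receptor-carrying cells and less receptor RNA per cell cannot be told apart in bulk tissue, here or in any result below.

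**Figure D1:**
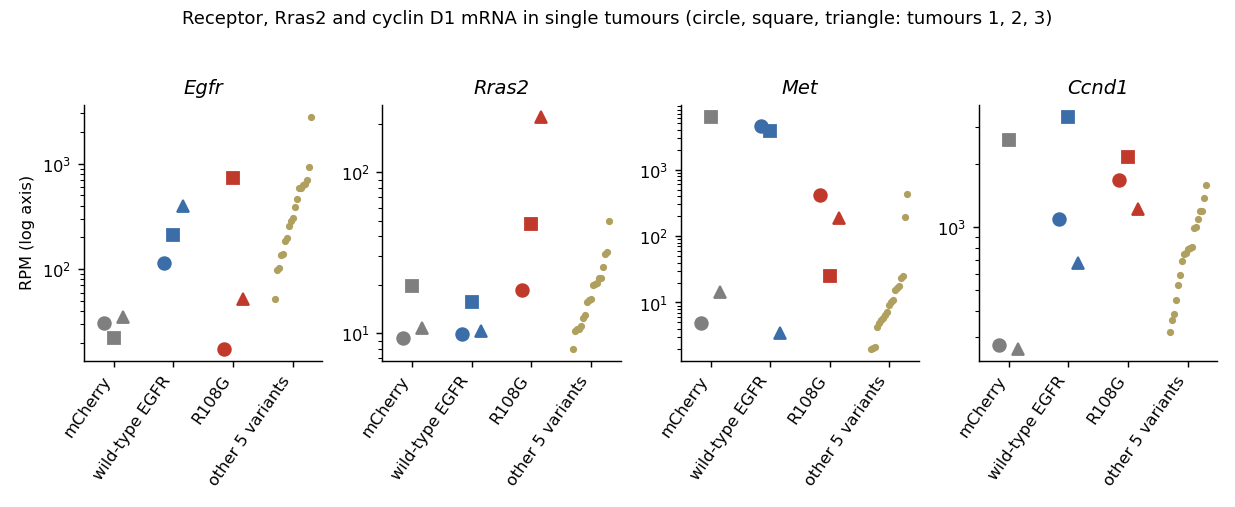
mRNA of Egfr, Rras2, Met and Ccnd1 in RPM (log axis) in single tumours: 3 mCherry (grey), 3 wild-type EGFR (blue), 3 R108G (red) and 19 of the other 5 variants (small points, sorted). R108G tumour 2 had the highest Egfr of its group (732 RPM) and tumour 3 the highest Rras2 (221 RPM), and the Met values of wild-type EGFR tumours 1 and 2 were 4610 and 3853 RPM.

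The R108G tumours also differed from each other in a gene of the RAS family and in a stretch that holds the cyclin D1 gene. These genes were picked after their values were seen, so their levels are descriptions without a test. R108G tumour 3, 1 of the pair low in Egfr, was high at a pair of sites on chromosome 7, and tumour 2 was raised at some genes of both. Rras2, which encodes the RAS-related protein TC21, was at 18.5, 47.8 and 221 RPM in R108G tumours 1, 2 and 3. The wild-type tumours had 9.87 to 15.6 RPM, and the highest of the tumours outside these groups had 49.6 RPM. Its neighbour Spon1, which encodes the matrix protein F-spondin, was high in both tumour 2 (1920 RPM) and tumour 3 (1836 RPM) and at 270 RPM in tumour 1, against 129 to 305.4 RPM in the wild-type tumours. Copb1, a coatomer subunit on the other side of Rras2, was at 545 RPM in tumour 2 and 250.3 RPM in tumour 3, against 138 to 181 RPM in the wild-type tumours. The second site, found by a scan for neighbouring genes that are high together in 1 tumour, was a run of 10 genes (chr7:143778363-145309557, 1.53 Mb) from Mrgpre to Mrgprf that holds the cyclin D1 gene, with a median 2.01 log2 units above the median of all 28 tumours in tumour 3. Of these 10 genes 6 were raised at least 2-fold, since the scan marks whole windows. In tumour 3 Mrgpre (-0.48) and Dhcr7 (-0.79) were below the median of all tumours, and Shank2 (0.70) and Ccnd1 (0.62) were less than 2-fold above it. Tumour 2 was above that median by 1.58 at Fadd, 1.52 at Oraov1, 1.59 at Tpcn2, 1.44 at Ccnd1 and 1.11 at Shank2. At Ppfia1 (0.90), Cttn (0.73), Mrgprf (0.22), Mrgpre (0.12) and Dhcr7 (0.11) tumour 2 was less than 2-fold above it. The run is taken up again below, since it carries the genes that passed a test.

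The wild-type EGFR tumours were uneven as well. Met, the receptor for hepatocyte growth factor and another activator of RAS, was at 4610, 3853 and 3.51 RPM in wild-type tumours 1, 2 and 3. In the R108G tumours it was at 411, 25.2 and 186 RPM, between the extremes of the wild-type group and above the median of 9.20 RPM over the 19 tumours of the other variants, whose highest value was 437 RPM. The mCherry tumours 1, 2 and 3 had 4.98, 6283 and 14.6 RPM, so the highest Met of all tumours was in mCherry tumour 2. Capza2, an actin capping protein gene next to Met, was at 3070 and 936 RPM in wild-type tumours 1 and 2 and at 173 to 200 RPM in wild-type tumour 3 and the R108G tumours. In mCherry tumour 2 it was at 1309 RPM. Wild-type tumour 3, which lacked the high Met, had a run of 29 genes on chromosome 16 instead (chr16:39984361-55838899), 20 of them raised at least 2-fold. R108G tumour 2 had a run of 10 genes around Sp100 on chromosome 1, marked as raised, with only 4 of them raised at least 2-fold and a median of 0.08.

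**Figure D2:**
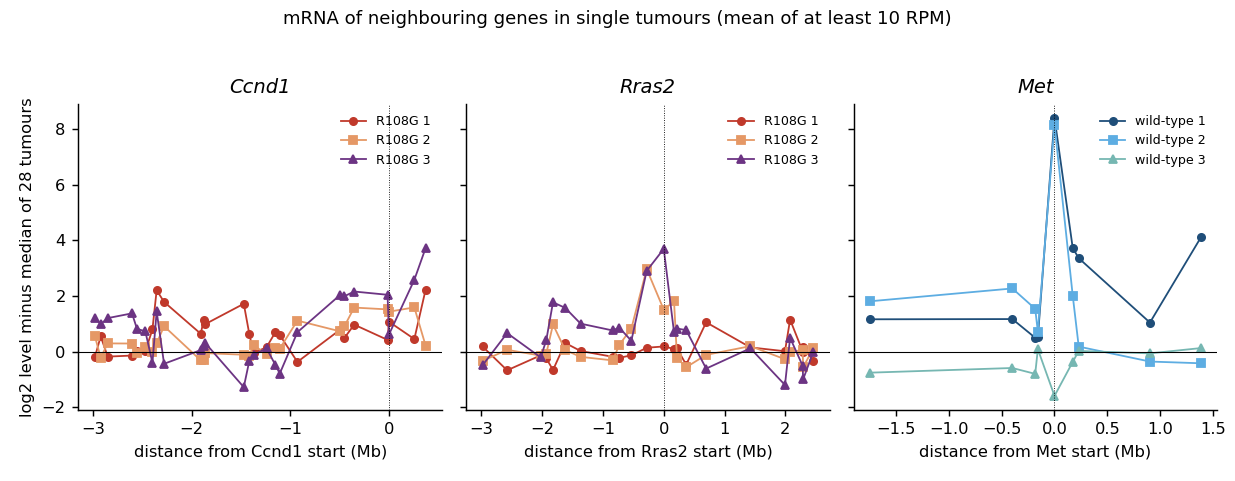
Level of genes within 3 Mb of Ccnd1, Rras2 (R108G tumours) and Met (wild-type EGFR tumours), as log2 level minus the median of the 28 tumours, against the distance between gene starts in Mb. Near Ccnd1 R108G tumour 3 reached 2.16 at Fadd, 2.58 at Tpcn2 and 3.72 at Mrgprf, and at Met wild-type tumours 1 and 2 reached 8.41 and 8.15.

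Across all genes, no difference between R108G and wild-type EGFR passed the test. Of 15824 genes tested, 0 (0%) had an adjusted p under 0.05 in limma, and the lowest adjusted p was 0.292. At an unadjusted p under 0.05 there were 1347 genes, 696 higher and 651 lower in R108G. The edgeR quasi-likelihood test on the recovered reads also called 0 genes, with 1493 at an unadjusted p under 0.05. DESeq2 called 95 of the 13945 genes it gave an adjusted p (0.681%), 39 higher and 56 lower. Its calls included the Y-linked Eif2s3y, at 8.69 and 19.99 RPM in R108G tumours 1 and 3. That gene was at 0 RPM in R108G tumour 2 and the wild-type tumours. Among the calls were also genes of runs seen in single wild-type tumours, such as Capza2, St7 and Lsm8 near Met and Dzip3 and Qtrtd1 on chromosome 16. Others, such as Neu4 and Eif4e, lay outside these runs. Limma with a weight per library called 71, with 39 called by both. The median difference of all genes was 0.04 on the log2 scale, and 53.2% of genes had the higher mean in R108G. In 1064 genes (6.72%) every R108G tumour was above every wild-type tumour, and in 1129 genes (7.13%) every R108G tumour was below.

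The higher genes of smallest p among those without overlap are given first. None of the genes in this paragraph and the next passed with limma. Neu4, a sialidase of the oligodendrocyte lineage (chromosome 1, 94020451 to 94028334), was at 8.42, 19.4 and 37.3 RPM in the wild-type tumours and at 112, 74.9 and 129 RPM in the R108G tumours. The lowest R108G value was above the highest wild-type value, the log2 difference was 2.42 ± 0.49 (SE), and the adjusted p was 0.292 (limma). Gjb2, which encodes the gap junction protein connexin 26, was at 0 to 1.56 RPM in wild-type and 5.03 to 8.89 RPM in R108G tumours. Ppfia1, which encodes the scaffold protein liprin alpha 1 and lies beside the cyclin D1 gene, was at 79.3, 71.3 and 60.8 RPM in wild-type and at 104, 139 and 295 RPM in R108G tumours, so R108G tumour 3 had by far the highest value. The others were Colgalt2, a collagen galactosyltransferase (3.59 to 5.87 RPM against 13.8 to 30.2 RPM), and Plscr2, a phospholipid scramblase (1.56 to 5.17 RPM against 9.41 to 13.9 RPM).

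The lower genes were chosen in the same way. Eif4e, the cap-binding factor that starts translation (chromosome 3, 138526179 to 138559696), was at 268, 262 and 283 RPM in wild-type tumours and at 112, 153 and 109 RPM in R108G tumours. The wild-type values lay close together and far above the R108G values, with a log2 difference of -1.13 ± 0.25 (SE) and an adjusted p of 0.303 (limma). Sumo2, a small protein modifier, was at 352 to 441 RPM in wild-type and 157 to 304.5 RPM in R108G tumours, a log2 difference of -0.93. C1d, a cofactor of the nuclear exosome, was at 59.2 to 69.5 RPM against 24.9 to 34.4 RPM. Tceb1, which encodes elongin C, was at 87.2 to 99.2 RPM against 42.6 to 65.0 RPM. Sh3bgrl, a small adaptor-like protein gene on the X chromosome, was at 155 to 219 RPM against 48.2 to 107.6 RPM. Mir684-2, a microRNA locus of 86 bases, was at 4.31 to 5.46 RPM against 0 to 1.15 RPM; reads of a longer polyadenylated transcript over it cannot be told from its own. All 12 genes that the rule chose passed with DESeq2 (adjusted p 0.00201 to 0.0385) and 10 of the 12 with library weights, but the edgeR adjusted p were 0.197 to 0.237, and with a term for library range in limma they were at least 0.955. With the 2-range term the differences of the lower genes were smaller, -0.10 for Tceb1, -0.53 for Mir684-2, -0.53 for Sumo2, -0.54 for Eif4e, -0.63 for Sh3bgrl and -0.67 for C1d. The differences of the higher genes were 2.16 for Neu4, 1.99 for Gjb2, 1.30 for Ppfia1, 1.60 for Plscr2 and 2.53 for Colgalt2.

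**Figure D3:**
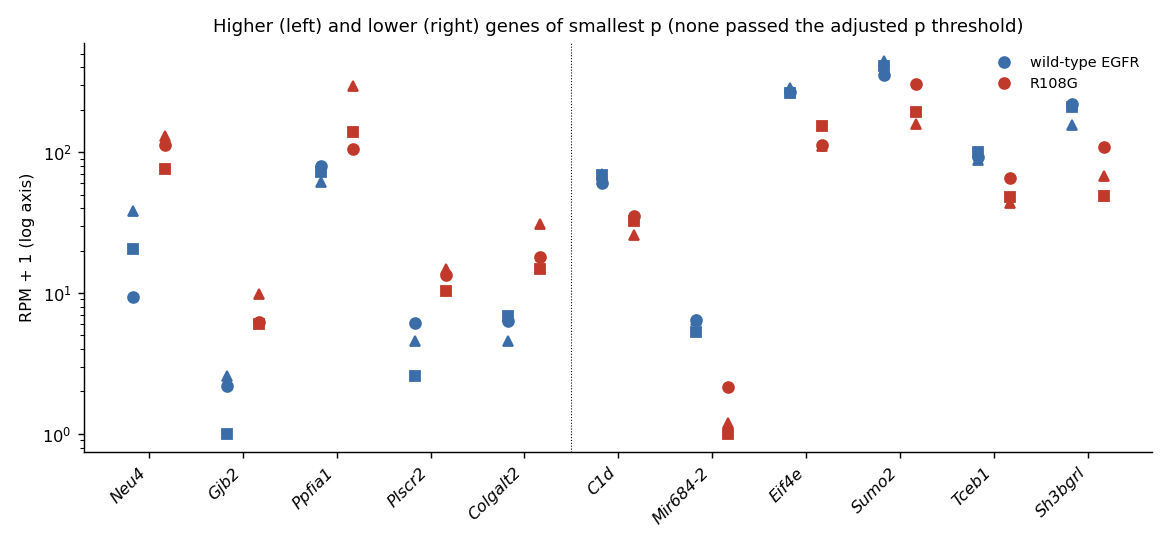
RPM + 1 (log axis) of higher and lower genes of smallest p in the 3 wild-type EGFR (blue) and 3 R108G (red) tumours, with circle, square and triangle for tumours 1, 2 and 3. The groups do not overlap in any gene shown, which is part of how the genes were chosen, and none passed in limma (adjusted p 0.292 to 0.303).

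The same genes were set beside the other 5 variants to see whether R108G stood apart from EGFR variants as a class. Neu4 ran from 21.5 to 151.2 RPM over those 19 tumours, around the R108G values, and the R108G difference from the mean of the 5 variants was 0.87 ± 0.37 (SE; limma adjusted p 0.999). Eif4e ran from 124 to 365 RPM there, with a difference of -0.82 ± 0.19 (limma adjusted p 0.632). Of these variants only A289I had libraries numbered above 37, as R108G did, and its values overlapped R108G in each lower gene. Its range was 124 to 243 RPM for Eif4e, 164 to 252.5 for Sumo2 and 28.9 to 38.2 for C1d. It was 44.1 to 60.1 RPM for Tceb1, 51.4 to 91.5 for Sh3bgrl and 0 to 1.99 for Mir684-2. A289I also overlapped R108G in the higher genes except Ppfia1 (51.0 to 76.2 RPM). Whether library number plays a part was not tested. Of the 12 genes, only Ppfia1 passed against the other variants.

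Against the other 5 variants, 4 genes passed (0.0253% of those tested), all higher in R108G, and all from the cyclin D1 neighbourhood on chromosome 7. Oraov1, named for its place in oral cancer amplicons (144915100 to 144931701), was at 31.7, 68.9 and 99.5 RPM in R108G tumours 1, 2 and 3 and at 18.5 to 31.7 RPM in the other variants. Its log2 difference was 1.35 ± 0.21 (SE, limma adjusted p 0.0127). Ppfia1 (144476758 to 144553729) differed by 1.18 ± 0.19 (limma adjusted p 0.0189). Fadd (144577318 to 144582463), the death receptor adaptor, was at 33.7, 52.1 and 78.2 RPM, above the range of 6.68 to 29.1 RPM in the other variants, and differed by 1.61 ± 0.29 (limma adjusted p 0.0382). Tpcn2 (145186524 to 145284011), a lysosomal ion channel, was at 14.0, 32.1 and 64.8 RPM and differed by 1.67 ± 0.30 (limma adjusted p 0.0406). In all 4 genes the order of the tumours was the same, with tumour 3 highest and tumour 1 lowest, and tumour 1 lay close to the highest of the other variants.

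The neighbours of these 4 genes shared the pattern in part. Cttn, which encodes the actin regulator cortactin, was at 409, 390 and 973 RPM in the R108G tumours and at 137 to 316 RPM in the other variants (log2 difference 1.35 ± 0.26, limma adjusted p 0.087). Ccnd1, which encodes cyclin D1, was at 1680, 2161 and 1225 RPM in R108G tumours, at 317 to 1578 RPM in the other variants, and at 1097, 3345 and 674 RPM in the wild-type tumours, so tumour 3, with the highest neighbours, had the lowest Ccnd1 of its group. Ccnd1 passed in neither comparison. Mrgprf, the last gene of the run, had another order, at 34.1, 7.70 and 97.8 RPM in R108G tumours 1, 2 and 3. In wild-type tumours 1, 2 and 3 it was at 7.34, 0.24 and 22.2 RPM. Against wild-type EGFR, Fadd differed by 1.57 ± 0.37, Oraov1 by 1.03 ± 0.27 and Tpcn2 by 1.39 ± 0.40, with limma adjusted p from 0.303 to 0.375. Without R108G tumour 2, and without R108G tumour 3, none of the 4 passed against the other variants, and with a term for library range (described below) 0 of these 4 passed. With the 2-range term their differences were 1.33 for Fadd, 1.49 for Oraov1, 1.26 for Ppfia1 and 1.57 for Tpcn2. With a pseudocount of 0.1 RPM or with no filter on low genes, Oraov1 and Ppfia1 passed, and with only the compared groups in the fit, Oraov1 and Cttn passed.

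Genes of the EGFR pathway were described by lists, with counts and medians and no test of a list. In each list below 0 members passed in limma, and counts of members without overlap stand against 6.72% of all genes in the higher direction and 7.13% in the lower. Among the 4 EGFR family receptors the log2 differences ran from -1.24 for Egfr to 0.42 for Erbb4. Erbb3, a partner with a weak kinase, was at 162, 115 and 53.4 RPM in R108G and 212, 124 and 23.2 RPM in wild-type tumours, with overlapping groups. Erbb2 was at 23.8 RPM in R108G tumour 1 and at 3.12 to 8.06 RPM in the other 5 tumours. Of the 9 ligands tested of 11, Tgfa was at 69.0 to 162 RPM in wild-type and 81.3 to 184 RPM in R108G tumours, and the list median was 0.02. Areg, which encodes amphiregulin, was at 8.06, 4.55 and 0 RPM in wild-type and at 0.2 to 1.25 RPM in R108G tumours.

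The 23 signal transducers had a median of -0.02, with 11 higher and 12 lower means, and 1 gene in each direction without overlap. Pik3ca, the catalytic subunit of PI3K, was at 80.9 to 87.2 RPM in wild-type and 60.3 to 62.1 RPM in R108G tumours, and Mtor, the growth kinase, at 71.9 to 76.8 RPM against 80.1 to 90.2 RPM. Of the 12 pathway inhibitors 10 had the lower mean in R108G (median -0.13). Lrig3, of the family of LRIG membrane proteins, was the 1 member without overlap, at 3.71 to 4.83 RPM in wild-type and 5.89 to 13.6 RPM in R108G tumours. Of the 19 genes that ERK signalling induces or that feed back on it, 15 had the lower mean in R108G, with a median of -0.37. Dusp6, the ERK phosphatase, was at 174, 344 and 43.1 RPM in wild-type tumours and at 72.0, 79.6 and 90.5 RPM in R108G tumours. Spry4, an inhibitor of RAS activation, was at 23.6, 109 and 5.85 RPM against 25.3, 16.2 and 18.0 RPM. In both genes the 3 R108G tumours lay close together, inside the wide range of the wild-type tumours. Spred1, another inhibitor of RAS activation, was the only member whose groups did not overlap, at 144 to 218 RPM in wild-type and 88.0 to 130 RPM in R108G tumours. The direction of this list rested on the wild-type tumours: its median was 0.73 against wild-type tumour 3 alone, 0.08 without wild-type tumour 2, and 0.96 with the 2-range term.

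Other receptor kinases had a median of 0.28 over 18 genes, 4 of them non-overlapping and higher in R108G, against 6.72% of all genes. Ret was at 2.88 to 4.79 RPM in wild-type and 4.80, 21.4 and 43.0 RPM in R108G tumours, and Ddr1, a collagen receptor, at 207 to 232 RPM against 254 to 530 RPM. Among 23 genes of the RB and p53 pathways the median was 0.12. Trp53 itself was at 39.4 to 50.8 RPM in wild-type and at 128, 54.0 and 72.7 RPM in R108G tumours, with groups that did not overlap.

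**Figure D4:**
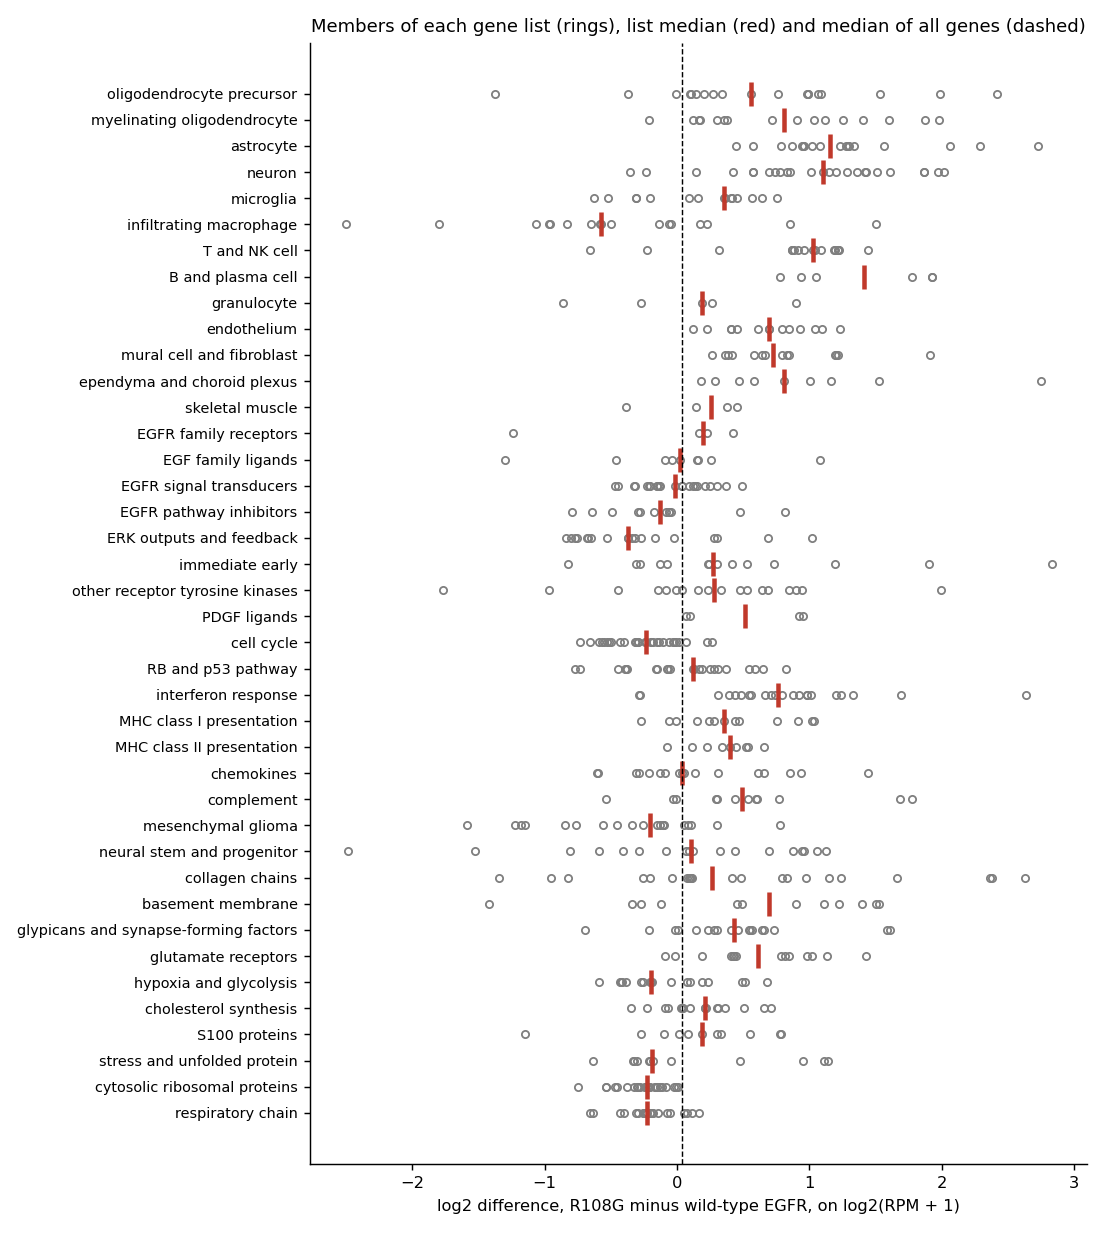
Log2 difference between R108G and wild-type EGFR for each member (rings) of the gene lists with at least 4 tested genes, with the list median (red) and the median of all genes (dashed, 0.04). The astrocyte list has all 18 members to the right of 0 and a median of 1.16, and no member of any list passed in limma.

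Astrocyte genes were the glial group with the most uniform direction. All 18 marker genes tested had the higher mean in R108G, and in 9 of the 18 the groups did not overlap, against 6.72% of all genes. Their median difference was 1.16 on the log2 scale, and 0 passed in limma. Mean list levels were 6.36, 5.66 and 6.55 log2 units in wild-type tumours 1, 2 and 3 and 7.18, 7.03 and 8.15 in R108G tumours, so every R108G tumour was above every wild-type tumour. Aldoc, the astrocyte aldolase, was at 288.7, 265 and 338 RPM in wild-type and at 489, 662 and 586 RPM in R108G tumours (0.95 ± 0.34 SE, limma adjusted p 0.440). Gja1, the gap junction protein connexin 43, was at 52.6, 7.31 and 12.6 RPM against 65.2, 45.2 and 230.2 RPM, with tumour 3 far above the rest. Gjb6, connexin 30, was at 0.24 to 8.42 RPM against 10.4 to 16.9 RPM. Atp1b2, a sodium pump subunit of astrocytes, was at 170 to 400 RPM against 397 to 803 RPM and overlapped by a narrow margin. The median of the list was 0.62 to 1.44 in all alternatives tried, the lowest being R108G tumour 2 alone against the wild-type tumours. It was 0.49 against the other 5 variants.

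Normal cortex is rich in the same markers. The summed level of the 18 astrocyte genes was 5039 to 9815 RPM in R108G, 2204 to 5702 RPM in wild-type tumours and 8086 to 8800 RPM in the cortex samples. Neuron markers summed to 1278, 3831 and 3240 RPM in R108G tumours 1, 2 and 3 and to 2641, 1092 and 1649 RPM in wild-type tumours, against 18789 to 18819 RPM in cortex. Of 25 neuron genes 23 had the higher mean in R108G (median 1.10), with 1 non-overlapping in each direction. The neuron median was 0.30 without wild-type tumour 2, 0.61 without R108G tumour 2, 1.70 without wild-type tumour 1 and 1.73 without R108G tumour 1. R108G tumour 1 was inside the wild-type range in its neuron sum. In the astrocyte sum R108G tumours 1 and 2 (5189 and 5039 RPM) were both inside the wild-type range, and only tumour 3 was above it. The R108G tumours were all above the wild-type range only in the mean log2 level of the astrocyte list. With the neuron level as a covariate in limma, the astrocyte median was 0.70.

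**Figure D5:**
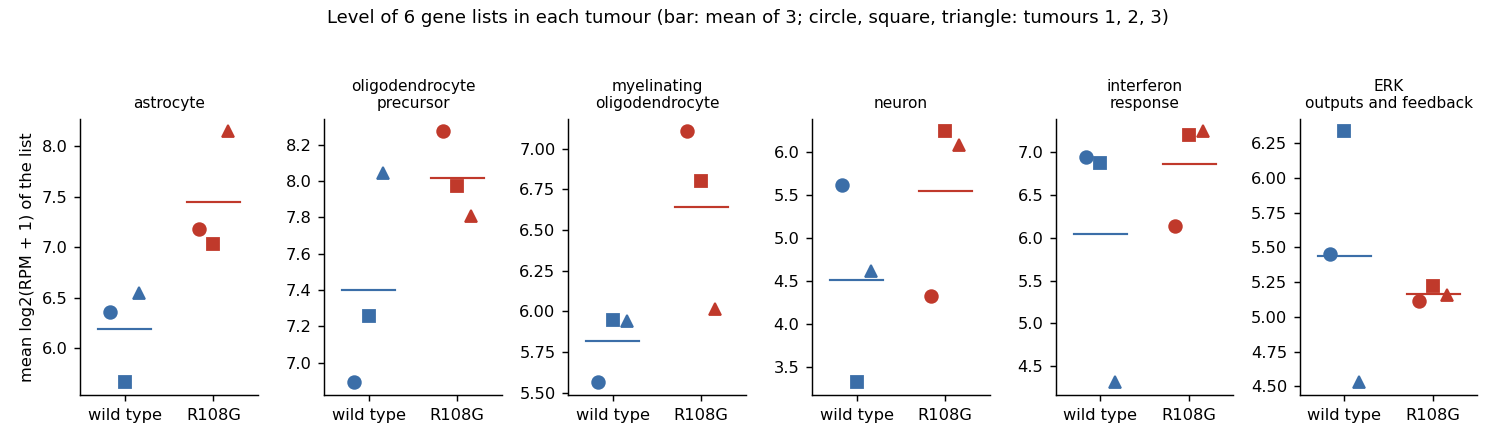
Mean log2(RPM + 1) of 6 gene lists in each wild-type EGFR (blue) and R108G (red) tumour, with a bar for the mean of 3. Astrocyte levels were 7.03 to 8.15 in R108G and 5.66 to 6.55 in wild-type tumours without overlap, myelin levels stood apart by a narrow margin (6.01 against 5.95), and neuron, interferon, oligodendrocyte precursor and ERK levels overlapped.

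The oligodendrocyte lineage is the one many gliomas resemble, and its precursor markers served as the check of the tumour label. The 19 precursor genes summed to 6274 to 9764 RPM in R108G and 6083 to 10560 RPM in wild-type tumours, against 1171 to 1239 RPM in cortex. The highest sum was that of wild-type tumour 1, where Ptprz1 alone was at 7590 RPM. By mean log2 level of the list that tumour was the lowest, at 6.89 against 7.26 to 8.27 in the other wild-type and R108G tumours. In the comparison 16 of the 19 had the higher mean in R108G, 4 without overlap (6.72% over all genes), with a median of 0.56. Gpr17, a receptor of cells on the way from precursor to oligodendrocyte, was at 130, 320 and 409 RPM in wild-type and 1707, 635 and 983 RPM in R108G tumours (1.98 ± 0.64 SE, limma adjusted p 0.375). Tnr, which encodes tenascin R, was at 25.8 to 102 RPM against 150 to 248 RPM. Ptprz1, a receptor phosphatase, went the other way, at 7590, 1694 and 726 RPM against 1045, 1137 and 445 RPM. Olig2 and Sox10, transcription factors of the lineage, overlapped between the groups, with Olig2 at 188 to 444 RPM in wild-type and 285 to 399 RPM in R108G tumours. The list median was -0.08 against wild-type tumour 3 alone and -0.17 with the 2-range term.

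Of 16 genes of myelinating oligodendrocytes 15 had the higher mean in R108G (median 0.81; -0.04 against the other 5 variants), 2 without overlap against 6.72% of all genes. The mean level of the list was 5.56, 5.95 and 5.94 in wild-type and 7.11, 6.80 and 6.01 in R108G tumours, without overlap but by a narrow margin for tumour 3. Opalin, a myelin membrane protein, was at 3.12 to 5.42 RPM in wild-type and 44.1, 10.8 and 18.3 RPM in R108G tumours. Mog, a surface protein of myelin, was at 13.4 to 18.0 RPM against 27.8 to 62.3 RPM. Cortex summed to 13671 to 14097 RPM on this list, above the R108G tumours at 3296 to 9567 RPM. Among 18 genes of neural stem and progenitor cells the median was 0.10. Dcx, a marker of migrating neuroblasts, was at 54.6 to 102 RPM in wild-type and 5.75 to 29.7 RPM in R108G tumours, without overlap (-2.49 ± 1.12 SE, limma adjusted p 0.551).

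Glypicans and other factors that help synapses form had a median of 0.43 over 18 genes, 15 with the higher mean in R108G and 3 without overlap. Nrxn2, a presynaptic adhesion molecule, was at 56.8 to 86.6 RPM in wild-type and 111, 190 and 413 RPM in R108G tumours. Sparcl1, which encodes the secreted synapse-forming protein hevin, was at 100.2 to 1103 RPM against 992 to 1772 RPM. Glutamate receptors had a median of 0.61 over 14 genes, with 12 higher means, and a median of 0.05 with the neuron level as covariate.

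The medians of the microglia and macrophage lists each turned in sign when single tumours were left out. Of 15 microglia markers 10 had the higher mean in R108G (median 0.35), and Tmem119, a marker of resident microglia, was at 61.4, 21.7 and 87.4 RPM in wild-type and 36.98, 77.4 and 201.1 RPM in R108G tumours. Of 17 markers of infiltrating macrophages 13 had the lower mean (median -0.58). The macrophage median was 0.05 without wild-type tumour 1, 0.42 without wild-type tumours 1 and 2, and -1.94 with the 2-range term, and the microglia median was -0.24 without wild-type tumour 2 and -0.15 without R108G tumour 3. Spp1, which encodes osteopontin, was at 54.5, 696 and 15.1 RPM against 31.2, 28.5 and 14.6 RPM, so wild-type tumour 2 set its difference. T and NK cell genes were at low levels, summing to at most 177 RPM in wild-type and 181 RPM in R108G tumours, with 15 of 17 higher means and a median of 1.03, which was 0.17 with the 2-range term, 1.68 without wild-type tumour 1 and 0.63 without wild-type tumour 3. All 6 tested B cell genes had the higher mean, 3 without overlap, and they summed to 80.1, 221 and 609 RPM in R108G tumours 1, 2 and 3 against 29.1 to 113 RPM in wild-type tumours. With the 2-range term the B cell median of 1.41 was 0.01.

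Interferon-induced genes were low in 1 wild-type tumour. Of 22 genes 20 had the higher mean in R108G, with a median of 0.76, and they summed to 6399, 4021 and 865 RPM in wild-type tumours 1, 2 and 3 and to 2814, 5342 and 4940 RPM in R108G tumours. Without wild-type tumour 3 the median was -0.01. Oas2, an antiviral RNA sensor, was among the 3 without overlap, at 1.56 to 8.30 RPM in wild-type and 15.9, 18.6 and 98.4 RPM in R108G tumours. MHC class I and class II genes had medians of 0.35 and 0.40, which were -0.64 and -1.82 with the 2-range term. In the complement list C4b did not overlap, at 1333, 355 and 1038 RPM in wild-type and 2410, 2638 and 3117 RPM in R108G tumours (1.78 ± 0.59 SE, limma adjusted p 0.393).

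Vessel and matrix genes leaned towards R108G. All 14 endothelial genes had the higher mean (median 0.70), 3 without overlap, among them Vwf, the clotting factor carrier of endothelium, at 21.1 to 44.6 RPM in wild-type and 62.9 to 71.6 RPM in R108G tumours. All 14 mural cell and fibroblast genes did too (median 0.73), and Notch3, the receptor of vascular smooth muscle, was at 10.7 to 15.2 RPM against 15.9 to 57.6 RPM. With the 2-range term the endothelial median was 0.00 and the mural median 0.64. Of 22 collagen chains 16 had the higher mean (median 0.26), and the mean level of the list overlapped between the groups. The collagen median ran from -0.01 to 0.80 leaving out 1 tumour, and its lowest value over all alternatives was -0.16. Col9a3, a cartilage-type collagen chain, was at 36.9, 41.0 and 92.5 RPM in wild-type and 356, 119 and 487 RPM in R108G tumours (2.38 ± 0.64 SE, limma adjusted p 0.364), above the mCherry tumours at 16.6 to 21.3 RPM and inside the range of 54.6 to 418 RPM of the other variants in tumours 1 and 2. Col11a2, a fibrillar collagen chain, was at 11.98 to 156 RPM against 223 to 890.5 RPM. Choroid plexus RNA was present in 1 tumour: Ttr, its defining transcript, was at 234 RPM in R108G tumour 2 and at 0.25 to 2.94 RPM in the other 5 tumours.

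Genes of division and of basic metabolism leaned the other way, by small amounts. Of 30 cell cycle genes 26 had the lower mean in R108G (median -0.24), 3 without overlap, and their sum was 1769 to 3072 RPM in R108G and 2629 to 3306 RPM in wild-type tumours, against 183 to 185 RPM in cortex. In R108G tumours 1, 2 and 3 the sum was 2880, 3072 and 1769 RPM, so only tumour 3 was below the wild-type range. The cell cycle median against the other 5 variants was 0.15. Nusap1, a spindle protein, was at 61.7 to 88.8 RPM in wild-type and 39.6 to 59.4 RPM in R108G tumours. Of 25 cytosolic ribosomal proteins 24 had the lower mean (median -0.23), 5 without overlap, against 7.13% of all genes. Rpl27 was at 485 to 824 RPM against 290.3 to 425 RPM. The mean level of the ribosomal list was 9.59, 9.54 and 9.94 in wild-type and 9.53, 9.55 and 9.22 in R108G tumours. These levels overlapped, and wild-type tumour 3 and R108G tumour 3 stood apart from the rest. The ribosomal median against the other 5 variants was -0.0008. Of 22 respiratory chain genes 18 had the lower mean (median -0.23), and the mean level of the list was 7.48 to 7.58 in wild-type and 7.25 to 7.38 in R108G tumours, without overlap. Of 20 mesenchymal glioma genes 15 had the lower mean (median -0.20), and S100a10 was at 106 to 315 RPM against 69.2 to 116 RPM. Hypoxia and glycolysis, stress, S100 and cholesterol synthesis genes had medians of -0.19, -0.19, 0.19 and 0.21.

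Some features of the libraries moved with the groups, and their part in the results was not tested. The numbers in the library labels were all above 37 for R108G and 1, 2 and 23 for wild-type EGFR. The range terms above split these numbers at 20 and 37 or at 37 alone. No range held both groups, so within a range the group cannot be compared. The 2-range term was set by the mCherry tumours, the only group with libraries on both sides of 37. Of these, mCherry tumour 3 alone was above 37, and mCherry tumours 1 and 2 were below it. Every value given with the 2-range term therefore rested on 1 library against 2. A difference between these single tumours cannot be told from a difference between ranges. Reads per library were 14280294 to 19094450 in R108G and 8078757 to 12950869 in wild-type tumours, which made 1 read worth 0.05 to 0.07 RPM and 0.08 to 0.12 RPM. GC content moved with the difference: over quartiles of transcript GC (14971 coding genes) the median log2 difference was -0.22, -0.02, 0.10 and 0.25 from lowest to highest, and the share of genes wholly lower in R108G went from 14.9% to 1.87%. The lower genes Eif4e, C1d, Tceb1, Sh3bgrl and Mir684-2 had a transcript GC of 36.0% to 40.5%, and Sumo2 43.8%. A fit with the GC trend removed gave differences of -0.90 for Eif4e, -0.70 for C1d, -0.54 for Tceb1 and -1.06 for Sh3bgrl. It gave -1.74 for Mir684-2 and -0.81 for Sumo2. In the main fit they were -1.13, -1.10, -0.86, -1.44, -2.14 and -0.93 in that order. With the GC trend removed, 0 genes passed against wild-type EGFR and the same 4 passed against the other variants. Transcript length moved with the difference too. From the shortest to the longest quartile the share of genes wholly lower in R108G went from 10.1% to 4.46%. The share wholly higher went from 4.06% to 8.26%, and the median difference from -0.05 to 0.08. No fit took length into account. Rn45s, which is ribosomal RNA, took 3.64% of reads in wild-type tumour 3 and 0.165% to 0.796% in the other 5 tumours. Xist, expressed from the inactive X chromosome, was at 0.45 and 0.40 RPM in R108G tumours 1 and 3 and at 202 to 273 RPM in the other 4 of the 6, and the Y-linked Ddx3y was at 7.69 and 16.4 RPM in those 2 tumours and at 0 to 0.24 RPM in the others, so sex by these markers differed within R108G and between the groups.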

How the data were processed

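The authors deposited 1 table per group with a signal per gene and library, named RPM. Checked on the values, they are gene read counts divided by 1 size factor per library (every value came to a whole read within 0.05), so the deposited signal was divided by 10.2638, the same for every library, and is called RPM here; the design had assumed RPM. Per the submitters' processing notes FastQC, STAR 2.5.0a, mm10 and DESeq2 1.20.0 were used, with no roles given. The 9 tables held 24421 genes, 27 under date-like names, and 0 columns were left without a sample. limma 3.58.1 in R 4.3.3 was fitted to log2(RPM + 1) of the 15824 genes that reached 1 RPM in 3 or more libraries. The model had 9 group means over the 30 libraries (21 residual degrees of freedom), a robust eBayes step with a mean-variance trend, two-sided p-values and Benjamini-Hochberg adjustment at 0.05. The second contrast took R108G minus the mean of the 5 other variants' group means. Alternatives used edgeR 4.0.16 and DESeq2 1.42.0 on the recovered reads. Model and script were tested on simulated data.

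Named genes were the genes passing the test and, since none did, the 6 of smallest p in each direction with groups that do not overlap whose higher group averaged 5 RPM or more, passing over predicted loci, date-like names, Xist, Tsix and Y-linked genes, plus Egfr and up to 4 members of smallest p per list; further list members are named for their known role and were chosen with their values seen. Some genes are not reported here. The 41 gene lists, the members and the rules were chosen with earlier results of these data known. Red blood cell (1 of 5 genes tested), granulocyte (median 0.19), skeletal muscle (0.26), ependyma (0.81), chemokine (0.04), complement (0.49), PDGF ligand (0.51), immediate early (0.27) and basement membrane (0.69) lists were also run. Neighbour runs used 11108 genes averaging 10 RPM or more, windows of 7 genes and a threshold of 1.5 log2 units. Positions and GC come from GENCODE M21 on mm10. Replicate libraries differed far beyond counting noise (chi-square per degree of freedom at least 72.5).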

Additional observations from a re-analysis of the deposited data

How the results depend on the processing

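The count of 0 genes between R108G and wild-type EGFR stayed at 0 with edgeR, TMM scaling, another pseudocount or filter, the GC trend removed (an alternative chosen after seeing the data), only the compared groups and the neuron covariate. It was 95 with DESeq2, 71 with library weights, 5 with the 2-range library term, 7 with a term for 3 ranges, 7 without R108G tumours 1 and 3, and 22 without wild-type tumours 1 and 2. Leaving out 1 tumour gave 0 to 6 (6 without R108G 1, including Ppfia1, Oraov1 and Rras2, and 3 without wild-type 3, including Neu4). The count of 4 against the other variants was 35 with edgeR, 30 with DESeq2 and 37 with library weights. It was 2 with a pseudocount of 0.1 RPM, with no filter, or with only the compared groups. With a term for 2 ranges it was 2, and with a term for 3 ranges 1. With 1 tumour left out the count was 0 to 8 (0 without R108G 2 or R108G 3, 8 without R108G 1). It was 2, Oraov1 and Ppfia1, without A289I 1, 2, 4 or 5, A289V 1, R222C 1 or 3, or T263P 2 or 3. The Egfr difference of -1.24 turned to 0.15 with edgeR, 0.16 with DESeq2, 0.47 with library weights and 1.79 without R108G 1 and 3, and ran from -2.76 to -0.10 leaving out 1 tumour; it passed in none of 20 alternatives. The 12 named genes gave 240 values, of which 25 passed and 0 reversed. The lack of reversals was largely fixed by the choice of genes whose groups do not overlap, since leaving out tumours then cannot turn the sign. The fits with another filter or only the compared groups keep the main difference by construction. Of 797 list medians under alternatives, 76 changed sign. The causes were not tested. No paired analysis was possible because the labels give no replicate numbers that groups share. In these 6 libraries 1 read is at most 0.12 RPM, and whether depth limits the calls was not tested.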
